A study of Mus musculus with 7 samples.

Results

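The genes described here build and use the acidic lysosome: 17 subunits of the vacuolar proton pump (V-ATPase), 4 lysosomal membrane glycoproteins, 6 lysosomal ion channels and transporters, the 5 Ragulator subunits, 3 Rag GTPases with folliculin, and mTOR with Raptor and Rheb. These 39 genes were taken by name, as a list of functions, from the 52740 genes listed, and all 39 were among the 16990 that passed the filter on low counts. They were measured by RNA-seq in retinal pigment epithelium (RPE), the pigmented cell layer behind the photoreceptors, from 4 wild-type mice (WT; C57BL6/J; 3 females, F1, F2 and F3, and 1 male, M1) and 3 LC3b-/- mice (strain B6;129P2-Map1Lc3btm1Mrab/J, with the Map1lc3b gene inactivated; 2 females, F1 and F3, and 1 male, M), all labelled 24 months old. Map1lc3b encodes LC3b, a ubiquitin-like protein that is attached to lipids of autophagosomes and of phagosomes. The comparison asks how RPE transcripts differ when LC3b is missing. The knockout is present in every cell of the mouse, WT and LC3b-/- mice come from different strains, and the mouse names carry a group number that never is shared by both genotypes, so strain, that number and genotype cannot be told apart. Within LC3b-/-, the male has another group number than the females, so sex and that number cannot be told apart there. Each library comes from 1 mouse. RPE sheets were loosened with hyaluronidase and trypsin from eyecups freed of cornea, ciliary body, lens and neural retina.

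The V-ATPase splits ATP in its cytosolic V1 sector and so turns a rotor in its membrane V0 sector, which moves protons into the lysosome. The acid activates the hydrolases that digest the photoreceptor outer segment tips which the RPE takes up every day, while channels and exchangers in the lysosomal membrane carry the balancing ions and release calcium. The same membrane is where the growth-controlling kinase complex mTORC1 docks: Ragulator anchors the Rag GTPases, these recruit mTORC1 through Raptor when amino acids are plentiful, and Rheb then activates the kinase. Many genes of the lysosome, V-ATPase genes included, are known to be driven by the MiT/TFE transcription factors through E-boxes close to the start site.

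Because that E-box bears on how the genes are controlled, the promoters of the members were read from GRCm39, from 250 bases before to 50 after the start of the canonical transcript in GENCODE vM39. The E-box CACGTG, which reads alike on both strands, was present in 10 of 39 member promoters (25.6%) and in 1701 of 21770 promoters of protein-coding genes (7.81%), or in 1392 of the 14928 of these that passed the filter on low counts, as all members did (9.32%). The longer forms, which contain it, were searched on both strands: TCACGTGA was in 3 members (7.69%, against 1.11% of all and 1.49% of those that passed the filter) and GTCACGTG in 5 (12.8%, against 2.55% and 3.34%). The members with an E-box were Atp6v0b, Atp6v0e, Atp6v1a, Atp6v1h, Clcn7, Lamp1, Lamtor1, Lamtor4, Mcoln1 and Rragc. The stretches around the boxes of 6 of them are shown 5′ to 3′ with the box, or its longer form, in capitals. Atp6v0b and Lamtor4 are shown as members among the 12 of smallest p; Atp6v1h, Clcn7, Lamp1 and Mcoln1 were added after their values and motifs were seen, because they are the other members that hold 2 or more boxes.
Atp6v0b (chr4:117744536-117744592, minus strand): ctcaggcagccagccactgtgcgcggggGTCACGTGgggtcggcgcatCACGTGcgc
Lamtor4 (chr5:138253594-138253675, plus strand): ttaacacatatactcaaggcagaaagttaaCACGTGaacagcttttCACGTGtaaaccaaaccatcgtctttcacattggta
Atp6v1h (chr1:5153282-5153332, plus strand): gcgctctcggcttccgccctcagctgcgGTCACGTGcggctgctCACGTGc
Clcn7 (chr17:25352320-25352385, plus strand): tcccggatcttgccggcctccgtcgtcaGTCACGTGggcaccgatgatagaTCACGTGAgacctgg
Lamp1 (chr8:13209070-13209145, plus strand): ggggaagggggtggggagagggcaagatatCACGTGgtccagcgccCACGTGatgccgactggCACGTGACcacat
Mcoln1 (chr8:3550418-3550481, plus strand): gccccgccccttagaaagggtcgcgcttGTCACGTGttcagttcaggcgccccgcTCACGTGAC
Lamp1 has 4 boxes, and the last of them, 25 bases after the start site, lies beyond the stretch shown. The match of letters is a description and was not tested as a binding site.

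The counts of a library sum to between 24495952 and 35616134, and levels are given as CPM, counts scaled to a common library size with edgeR's TMM factors, always in the order F1, F2, F3 and M1 for WT and F1, F3 and M for LC3b-/-. Map1lc3b itself was present at 130.1, 117, 104 and 110.1 CPM in WT and 6.77, 8.33 and 6.76 CPM in LC3b-/-, which matches the labels. The lowest count of any member in any library was 163, so counting error is small beside the spread between mice over all genes, a coefficient of variation of 0.398. Some members varied much less than that. Rptor was at 32.7 ± 0.797 CPM in LC3b-/- (SD, n = 3), where counting error is not small beside the spread. The labels give 1 library per mouse and no technical repeats. In bulk RNA, fewer RPE cells in a sample and less of an RNA in each cell cannot be told apart.

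Most members lay lower in LC3b-/- RPE, by modest amounts that did not pass the correction over all genes. A log2 fold change below 0 was found for 35 of 39 members, against 48.8% of the 16990 genes tested, and the median over the members was −0.31, against 0.01 over all genes. By edgeR's quasi-likelihood test, 0 members were called at an adjusted p under 0.05 and at least 1.5-fold (all genes: 40, or 0.235%), and limma's voom also called 0. At an unadjusted p under 0.05, 14 members were lower (all genes: 10.6%) and 1 was higher (13.5%). For 10 members the highest LC3b-/- value was under the lowest WT value (all genes: 10.3%), and for 1 member the lowest LC3b-/- value was over the highest WT value (all genes: 12%). For 10 of these 11 members the exact two-sided permutation test of log2 CPM gave p = 0.0286, the smallest that 35 ways of dividing 7 libraries allow, and for Atp6v1d it gave p = 0.114. As these members were taken because their groups did not overlap, this p largely restates that choice and is no further evidence. With DESeq2's Wald test, the tool of the study, 4 members passed both criteria, Atp6v0e2, Atp6v1e1 and Rragd as lower and Tpcn2 as higher, where 9.85% of the genes with an adjusted p did. The 17 V-ATPase subunits had a median of −0.38 with 17 lower, and the other 22 members a median of −0.20 with 18 lower.

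**Figure D1:**
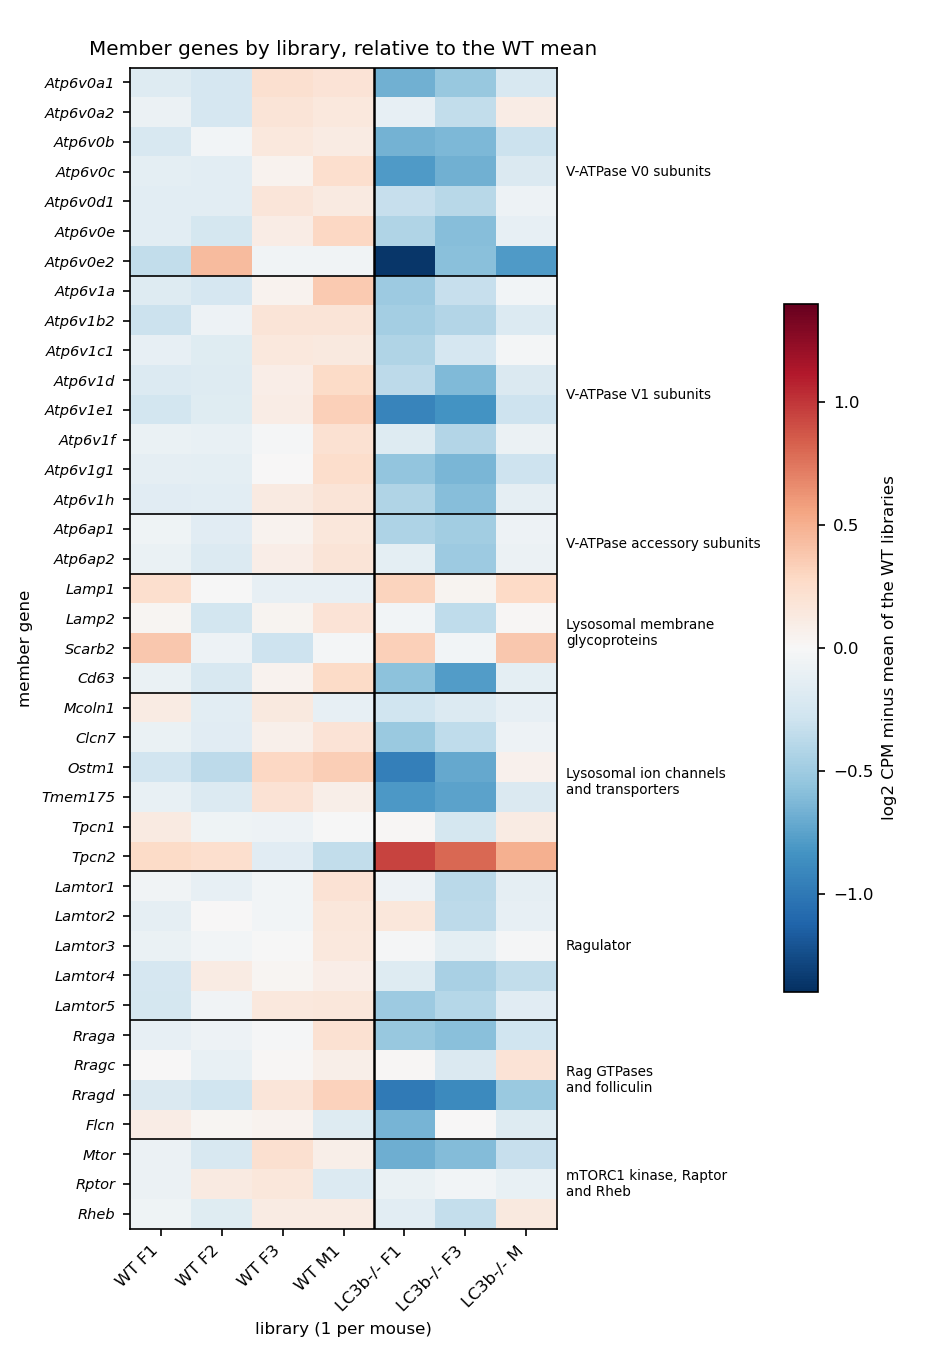
Colour gives the log2 CPM of each member gene (rows, grouped by role) in each library (columns) minus the mean of the 4 WT libraries; blue is lower and red higher. Below that mean lay 33, 36 and 30 of the 39 members in the LC3b-/- libraries from left to right, and 31, 33, 10 and 8 in the WT libraries.

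The libraries of each genotype were not alike. WT F1 and F2 lay below the WT mean for 31 and 33 of the 39 members, and WT F3 and M1 for 10 and 8. Among LC3b-/- mice, M lay nearest to WT: the median deviation of the 17 V-ATPase genes from the WT mean, in log2 units, was −0.43, −0.53 and −0.12 in the LC3b-/- libraries, beside −0.15, −0.15, 0.10 and 0.19 in the WT libraries. By this median, LC3b-/- M lay between the 2 lower and the 2 higher WT libraries. Its summed level of the 17 genes, 3161 CPM, was just under the lowest WT library at 3201 CPM. This library also differs from the other LC3b-/- libraries in sex and in group number, and their part in its values was not tested.

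The V0 sector holds the ring of proteolipid subunits that turns in the membrane and the a subunit along which protons pass. All 7 V0 genes had lower means in LC3b-/-, with a median log2 fold change of −0.48, and 3 had groups that did not overlap (all genes, lower: 10.3%). Atp6v0c (chr17:24382835-24389703, minus strand), the c subunit of which each ring needs many copies, had the highest level of the sector for its length, 519 ± 67.2 CPM per kb of transcript in WT (SD, n = 4). It was at 677, 669, 767 and 877 CPM in WT against 427, 467 and 646 CPM in LC3b-/-, a log2 fold change of −0.54 ± 0.20 (SE; edgeR adjusted p = 0.166). LC3b-/- M came close to the lowest WT library, and the other LC3b-/- libraries lay well below it.

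Its partner in the ring, Atp6v0b (the c″ subunit; chr4:117741522-117744567, minus strand), whose promoter is printed above, was at 218, 247, 283 and 276 CPM in WT and at 161, 165 and 206 CPM in LC3b-/-. The groups did not overlap, with a log2 fold change of −0.53 ± 0.15 and an adjusted p of 0.115. Atp6v0e2 (chr6:48514504-48522309, plus strand), 1 of 2 genes for the small e subunit, showed the largest difference among the V0 members: 85.1, 146, 104 and 104 CPM in WT and 41.9, 72 and 62.3 CPM in LC3b-/-. Its log2 fold change was −0.91 ± 0.24, the adjusted p 0.105, and WT F2 stood highest. For Atp6v0a1, the a subunit best known from neurons, the libraries held 254, 246, 337 and 329 CPM in WT and 181, 199.9 and 247 CPM in LC3b-/-. These groups overlapped only through WT F2 and LC3b-/- M, and the log2 fold change was −0.48 ± 0.18 (adjusted p = 0.174). Atp6v0a2, the a subunit of the Golgi and endosomes and the lowest V0 member per kb (13.6 ± 1.83 CPM per kb in WT), had 68.3, 61.5, 82 and 80.5 CPM in WT and 66.8, 56.9 and 78.2 CPM in LC3b-/-, groups that lay across each other. Atp6v0d1, which couples rotor and ring, and Atp6v0e gave log2 fold changes of −0.26 ± 0.14 and −0.38 ± 0.18, with overlapping groups. Copies of Atp6v0c on other chromosomes held at most 30 counts, and adding them left its fold change at −0.54.

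**Figure D2:**
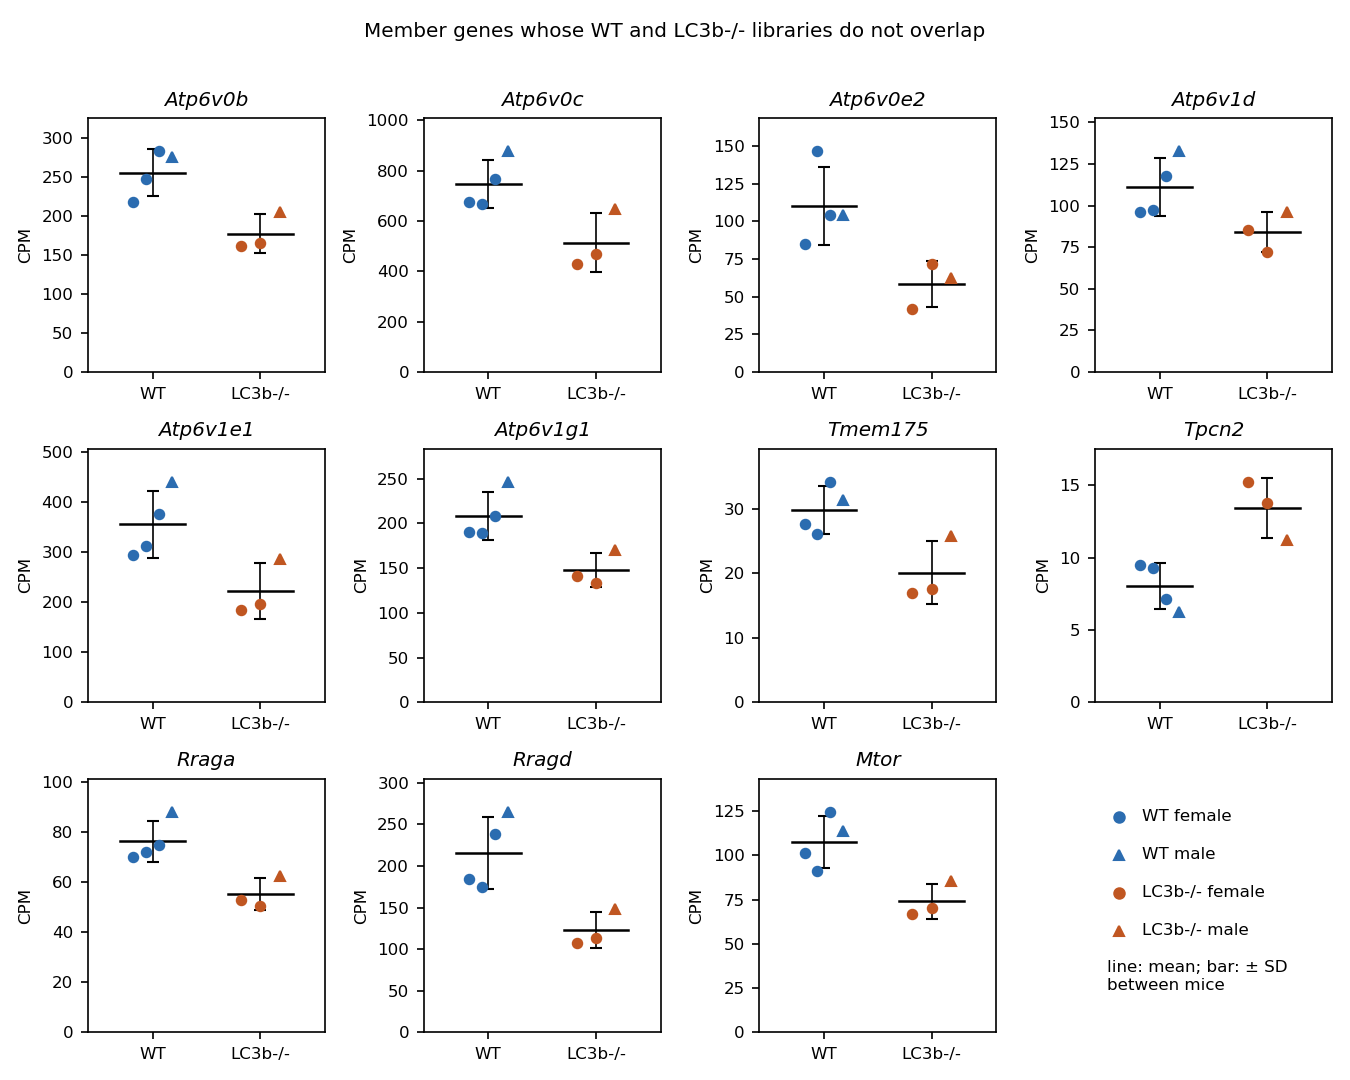
Each point is the CPM of 1 library (circles females, triangles males), with the mean and SD of each genotype, for the 11 members whose groups do not overlap. LC3b-/- libraries lie below all WT libraries for 10 genes and above them for Tpcn2, and the male LC3b-/- library is the nearest to WT for 10 of the 11.

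The V1 sector is the ATP-splitting part, a ring of A and B subunits held by peripheral stalks of E and G around a turning shaft of D and F. All 8 V1 genes had lower means (median log2 fold change −0.37), and 3 had groups that did not overlap (all genes, lower: 10.3%). These were the stalk subunits Atp6v1e1 and Atp6v1g1 and the shaft subunit Atp6v1d. Atp6v1e1 (chr6:120768646-120799807, minus strand) was the V1 gene of highest level per length, 290.0 ± 54.6 CPM per kb in WT, and of largest difference. It was at 294, 312, 376 and 441 CPM in WT and 184, 196 and 287 CPM in LC3b-/-, a log2 fold change of −0.68 ± 0.22 (adjusted p = 0.138). LC3b-/- M lay just under WT F1, so the gap between the groups was narrow.

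Atp6v1g1 (chr4:63462886-63471651, plus strand) was at 190.4, 189, 208 and 247 CPM in WT and 142, 133 and 169.7 CPM in LC3b-/- (log2 fold change −0.49 ± 0.15, adjusted p = 0.125). A near-identical copy, Gm13453, held at most 5.03% of its count, and the sum of both had a log2 fold change of −0.48. Atp6v1d had 96.4, 97.4, 118 and 133 CPM in WT and 85.3, 71.9 and 96 CPM in LC3b-/-, so that LC3b-/- M and WT F1 almost met (log2 fold change −0.40 ± 0.16, adjusted p = 0.195). Genes on the other strand, Pals1 and Eif2s1, overlap Atp6v1d, and since the use of strand in the counting is not stated, reads of these genes cannot be told apart with certainty. Atp6v1c1, which holds V1 on V0, was the lowest of the sector per length (10.5 ± 1.21 CPM per kb in WT) and had 62.2, 60.0, 74.9 and 74.1 CPM in WT and 50.4, 57.6 and 66.2 CPM in LC3b-/-, with overlap. Atp6v1a, the catalytic A subunit, and Atp6v1b2, the B subunit, gave −0.30 ± 0.20 and −0.37 ± 0.16 on the log2 scale. The regulatory Atp6v1h and shaft subunit Atp6v1f gave −0.38 ± 0.16 and −0.23 ± 0.13. All 4 had overlapping groups.

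The accessory subunits sit in the membrane beside V0 and help to assemble it. Atp6ap1 (Ac45) was at 255, 238, 275 and 296 CPM in WT and 196, 189 and 252 CPM in LC3b-/-, and Atp6ap2, the prorenin receptor, at 198, 185, 225 and 239.5 CPM in WT and 192, 149 and 199 CPM in LC3b-/-. Both overlapped between genotypes, with log2 fold changes of −0.32 ± 0.15 and −0.24 ± 0.16 (adjusted p = 0.242 and 0.388). The summed CPM of the 8 V1 genes over that of the 7 V0 genes was 0.823, 0.816, 0.830 and 0.890 in WT and 0.920, 0.870 and 0.865 in LC3b-/-. The ranges of the genotypes overlapped through WT M1.

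Of 8 subunit isoforms outside the 39 genes, 5 were abundant enough to test. In LC3b-/-, 2 were lower and 3 higher, and 2 of the latter had groups that did not overlap (all genes, higher: 12%). Atp6v0d2, an isoform of the d subunit known from osteoclasts and macrophages, was at 4.36, 3.77, 2.85 and 2.11 CPM in WT and 9.99, 14.8 and 22.2 CPM in LC3b-/-. Its log2 fold change was 2.26 ± 0.35 and its adjusted p 0.058. Tcirg1, the a3 subunit of osteoclasts and of lysosomes, was at 43.9, 24.9, 17.5 and 18.3 CPM in WT and 46.6, 51.3 and 56.4 CPM in LC3b-/- (log2 fold change 0.98 ± 0.32, adjusted p = 0.139). DESeq2 called both genes as higher. Markers of macrophages and microglia, which also express these isoforms, went in both directions beside them: of 10 markers 6 had lower and 4 higher means in LC3b-/-, and none had an unadjusted p under 0.05. Csf1r, which made up the largest part of their summed level (384 to 549 CPM in WT, 265 to 483 CPM in LC3b-/-), had a log2 fold change of −0.69 ± 0.34, whereas Ptprc and Tyrobp had 0.80 ± 0.40 and 0.67 ± 0.39. Over the 10 markers, the median deviation from the WT mean was 0.41, 0.28, −1.12 and 0.28 log2 units in WT. In LC3b-/- it was −0.02, 0.03 and 0.21. The sum, like Csf1r, was thus lowest in LC3b-/- F1, but the median over the markers was lowest in WT F3. Among the other lysosomal membrane proteins listed, Cd68 and Laptm5 are also known from macrophages and are named here after their values were seen. Cd68 was at 19.8, 20.2, 10.7 and 29.3 CPM in WT and 29.4, 40.6 and 52.8 CPM in LC3b-/-, without overlap (log2 fold change 1.03 ± 0.34, adjusted p = 0.137), and Laptm5 at 56.7, 48.4, 18.9 and 35.6 CPM in WT and 53.3, 57.4 and 84 CPM in LC3b-/-, with overlap (log2 fold change 0.70 ± 0.36, adjusted p = 0.271). The part of such cells in the values of Atp6v0d2 and Tcirg1 was not tested.

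Among 14 genes for V-ATPase assembly and regulation, 13 were tested; 11 were lower, 6 of them at an unadjusted p under 0.05, and 0 were called by edgeR and 1, Rogdi, by DESeq2. Rogdi, a partner of the complex that reassembles V1 with V0, was at 78.7, 91.4, 100.0 and 102 CPM in WT and 31.3, 47 and 53.4 CPM in LC3b-/- (log2 fold change −1.08 ± 0.20, adjusted p = 0.0842). Vma21, the assembly chaperone of V0, was at 41.3, 39.4, 44.6 and 44 CPM in WT and 32.7, 32.1 and 34.7 CPM in LC3b-/- (log2 fold change −0.35 ± 0.10, adjusted p = 0.111).

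Of the 4 lysosomal membrane glycoproteins, which line the inner face of the membrane, Lamp1 and Scarb2 had higher means in LC3b-/- and Lamp2 and Cd63 lower means, and all groups overlapped. Cd63, a tetraspanin of late endosomes and melanosomes, had the highest level of all 39 members for its length (565 ± 84.2 CPM per kb in WT and 404 ± 93.7 in LC3b-/-; SD). It was at 724, 665, 801 and 934 CPM in WT and 522, 452 and 703 CPM in LC3b-/-, a log2 fold change of −0.48 ± 0.21 (adjusted p = 0.211). Lamp1, the main glycoprotein coat of the lysosome, was at 306, 257, 239.7 and 239 CPM in WT and 322, 267 and 314 CPM in LC3b-/- (log2 fold change 0.21 ± 0.15, adjusted p = 0.41), and Lamp2, which also serves chaperone-mediated autophagy, at 317, 259, 319 and 354 CPM in WT and 301, 243 and 315 CPM in LC3b-/- (log2 fold change −0.12 ± 0.16). Scarb2, the receptor that brings β-glucocerebrosidase to lysosomes, was the lowest of the 4 per length. It was at 136, 99.6, 85.6 and 103 CPM in WT and 132, 102 and 135 CPM in LC3b-/-, with a log2 fold change of 0.22 ± 0.18 (adjusted p = 0.501).

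Among the ion channels and transporters, the potassium and proton channel gene Tmem175 and the two-pore channel gene Tpcn2 had groups that did not overlap, in opposite directions. Tmem175 (chr5:108777296-108805225, plus strand) was at 27.7, 26.1, 34.3 and 31.4 CPM in WT and 17, 17.6 and 25.8 CPM in LC3b-/- (log2 fold change −0.57 ± 0.19, adjusted p = 0.139). Gak and Dgkq lie over it on the other strand and held up to 3244 and 794 counts, and with the use of strand not stated, reads of these genes cannot be told apart with certainty. Tpcn2 (chr7:144740261-144837748, minus strand), a calcium and sodium channel of lysosomes and melanosomes, was the lowest member per length, at 2.69 ± 0.539 CPM per kb in WT and 4.49 ± 0.689 in LC3b-/-. It was at 9.51, 9.32, 7.11 and 6.27 CPM in WT and 15.3, 13.8 and 11.2 CPM in LC3b-/-, the only member above every WT library, with a log2 fold change of 0.74 ± 0.21 (adjusted p = 0.112). Its relative Tpcn1 was at 121, 106, 105 and 110.2 CPM in WT and 112, 92.8 and 119.7 CPM in LC3b-/- (log2 fold change −0.03 ± 0.12).

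Ostm1, the partner that stabilises the chloride and proton exchanger, had the highest level of the group per length. It was at 105, 98.2, 155 and 160.2 CPM in WT and 65.2, 77.2 and 132 CPM in LC3b-/-. LC3b-/- M reached the range of WT, and the log2 fold change of −0.50 ± 0.30 had the largest standard error of the 39 (adjusted p = 0.333). Clcn7, the exchanger itself, and Mcoln1, the calcium release channel TRPML1, gave log2 fold changes of −0.31 ± 0.14 and −0.20 ± 0.12 with overlapping groups.

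Ragulator, the scaffold of 5 small proteins that ties Rag GTPases to the membrane, had lower means for all 5 genes, with a median log2 fold change of −0.19, and all 5 pairs of groups overlapped. Lamtor4 was at 29.3, 37.3, 35.2 and 36.7 CPM in WT and 30.5, 25.1 and 27.2 CPM in LC3b-/- (log2 fold change −0.33 ± 0.13, adjusted p = 0.187), overlapping through WT F1; Trappc14 on the other strand held up to 710 counts where Lamtor4 held at least 757. Lamtor2 had the highest level of the 5 per length and Lamtor3 the lowest (80.0 ± 6.65 and 29.3 ± 2.16 CPM per kb in WT). Lamtor2 was at 48.8, 53.4, 52 and 59.4 CPM in WT and 59.5, 41.5 and 49.3 CPM in LC3b-/-, and Lamtor3 at 37, 38.4, 39.3 and 43.7 CPM in WT and 39.1, 36 and 39 CPM in LC3b-/-. Their log2 fold changes were −0.09 ± 0.15 and −0.06 ± 0.10, those of Lamtor1 and Lamtor5 −0.19 ± 0.13 and −0.36 ± 0.15.

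The Rag GTPases work as pairs of RagA or RagB with RagC or RagD. Rragd (chr4:32982984-33025899, plus strand) had the smallest p of all 39 members. It was at 184, 175, 238 and 265 CPM in WT and 107, 114 and 148 CPM in LC3b-/-, with a log2 fold change of −0.81 ± 0.20 and an adjusted p of 0.0967. All LC3b-/- libraries lay below WT F2, the lowest WT library. Rragc was at 55.1, 51, 55.6 and 58.2 CPM in WT and 55.4, 47.7 and 62.7 CPM in LC3b-/-, a log2 fold change of 0.01 ± 0.12 whose sign turned under several other settings. Rraga (chr4:86493905-86495522, plus strand), the RagA gene and the highest of the group per length, was at 70.0, 72.1, 74.8 and 88 CPM in WT and 52.6, 50.5 and 62.5 CPM in LC3b-/- (log2 fold change −0.47 ± 0.13, adjusted p = 0.108), again without overlap. Flcn, the folliculin that acts on RagC and RagD, was the lowest per length and stood at 78.2, 73.8, 75 and 63.9 CPM in WT and 46.1, 72.8 and 64.2 CPM in LC3b-/-. Its LC3b-/- F1 library was the lowest, the others reached the WT range, and the log2 fold change was −0.25 ± 0.17.

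Of the kinase complex, Mtor (chr4:148533015-148642141, plus strand) was at 101, 91.3, 125 and 114 CPM in WT and 66.8, 70.2 and 85.4 CPM in LC3b-/-. The groups did not overlap, with a log2 fold change of −0.54 ± 0.15 and an adjusted p of 0.109; Angptl7, within Mtor on the other strand, held up to 819 counts where Mtor held at least 1659. Rptor, for the substrate-binding Raptor, was at 32.5, 37.6, 38.4 and 30.1 CPM in WT and 32.5, 33.6 and 32.1 CPM in LC3b-/-, and Rheb, the activating GTPase, at 89.8, 83.7, 102 and 102 CPM in WT and 85, 74.5 and 104 CPM in LC3b-/-. Both overlapped (log2 fold changes −0.08 ± 0.12 and −0.10 ± 0.14), and Rptor was the lowest and Rheb the highest of these 3 per length.

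The other genes of the pathway, 110 listed and 105 tested, were lower in LC3b-/- in 57 cases and higher in 48, with a median log2 fold change of −0.06. By edgeR 0 of them were called, by limma's voom also 0, and by DESeq2 11, or 10.4% of the 106 with an adjusted p (all genes: 9.85%). DESeq2 called Rogdi, Tmem106b, Mfsd8, Borcs7 and Bloc1s1 as lower and Tcirg1, Atp6v0d2, Npc1, Sidt2, Mcoln2 and P2rx4 as higher; the adjusted p-values printed for single genes are edgeR's. At an unadjusted p under 0.05 by edgeR, 20 of 105 were lower (19%; all genes: 10.6%) and 11 higher (10.5%; all genes: 13.5%). Other lysosomal membrane proteins numbered 25, of which 14 were lower and 5 lower and 4 higher at that p. Npc1, which exports cholesterol from lysosomes, was at 46.2, 46.2, 40.9 and 31.5 CPM in WT and 67, 76.4 and 66 CPM in LC3b-/- (log2 fold change 0.76 ± 0.15, adjusted p = 0.0906). Mfsd8 (Cln7), a membrane protein mutated in a neuronal ceroid lipofuscinosis, was at 14.6, 18.4, 20.4 and 20.1 CPM in WT and 10.6, 10.9 and 12.5 CPM in LC3b-/- (log2 fold change −0.70 ± 0.16, adjusted p = 0.0951). These are the genes of smallest p in that list, and their groups did not overlap, in opposite directions.

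Of 7 relatives of the lysosomal channels, 3 were lower; Mcoln2, a mucolipin of immune cells, was at 1.23, 0.456, 0.412 and 0.384 CPM in WT and 1.93, 1.48 and 2.48 CPM in LC3b-/-, and P2rx4, an ATP-gated channel, at 12.7, 9.94, 5.69 and 9.03 CPM in WT and 15.8, 15.5 and 18.8 CPM in LC3b-/-. Both lay above every WT library, with log2 fold changes of 1.64 ± 0.51 and 0.84 ± 0.26 (adjusted p = 0.126 and 0.127). Among the 19 genes that position and fuse lysosomes (BORC, ARL8 and HOPS), 14 were lower, 6 of them and 2 of the higher ones at an unadjusted p under 0.05. Bloc1s1, shared by BLOC-1 and BORC, was at 99.9, 106, 102 and 108 CPM in WT and 67.9, 51.1 and 76.9 CPM in LC3b-/- (log2 fold change −0.67 ± 0.15, adjusted p = 0.0924). Borcs5, which anchors BORC in the membrane, was at 16.3, 21.3, 20.5 and 21.2 CPM in WT and 14.3, 13.7 and 13.1 CPM in LC3b-/- (log2 fold change −0.53 ± 0.14, adjusted p = 0.102).

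Upstream of mTORC1 stand regulators that sense amino acids and growth factors. GATOR1, GATOR2 and KICSTOR, which switch the Rag GTPases, had 5 of 12 genes lower and a median log2 fold change of 0.0025. Itfg2 of KICSTOR and Nprl3 of GATOR1 had the smallest p, with log2 fold changes of −0.58 ± 0.18 and −0.49 ± 0.18 (adjusted p = 0.127 and 0.166) and no overlap. Of 7 amino acid sensors 1 was lower; the leucine sensor gene Sesn2 had a log2 fold change of 0.51 ± 0.19 and Sesn3 of −0.53 ± 0.28, with overlap. The other partners of Rag, Rheb and folliculin (1 of 4 lower), the TSC complex that restrains Rheb (2 of 3 lower) and the other subunits of mTORC1 and mTORC2 (3 of 7 lower) had no gene at an unadjusted p under 0.05. Of these, Fnip2, a folliculin partner, had groups that did not overlap (log2 fold change 0.46 ± 0.21, adjusted p = 0.232), while Rragb gave −0.42 ± 0.22, Tsc2 0.12 ± 0.10, Tsc1 −0.16 ± 0.15, Prr5l 0.49 ± 0.30 and Akt1s1 −0.16 ± 0.13, all with overlap. Of the 3 MiT/TFE factors tested, none had an unadjusted p under 0.05: Mitf was at 57.3, 44.5, 70.3 and 79.3 CPM in WT and 41.3, 41.8 and 68.5 CPM in LC3b-/-, and Tfe3 at 30.4, 31.4, 26.9 and 25.8 CPM in WT and 29.2, 29.7 and 35.1 CPM in LC3b-/-. Their log2 fold changes were −0.31 ± 0.26 and 0.13 ± 0.13 (adjusted p = 0.479 and 0.555).

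**Figure D3:**
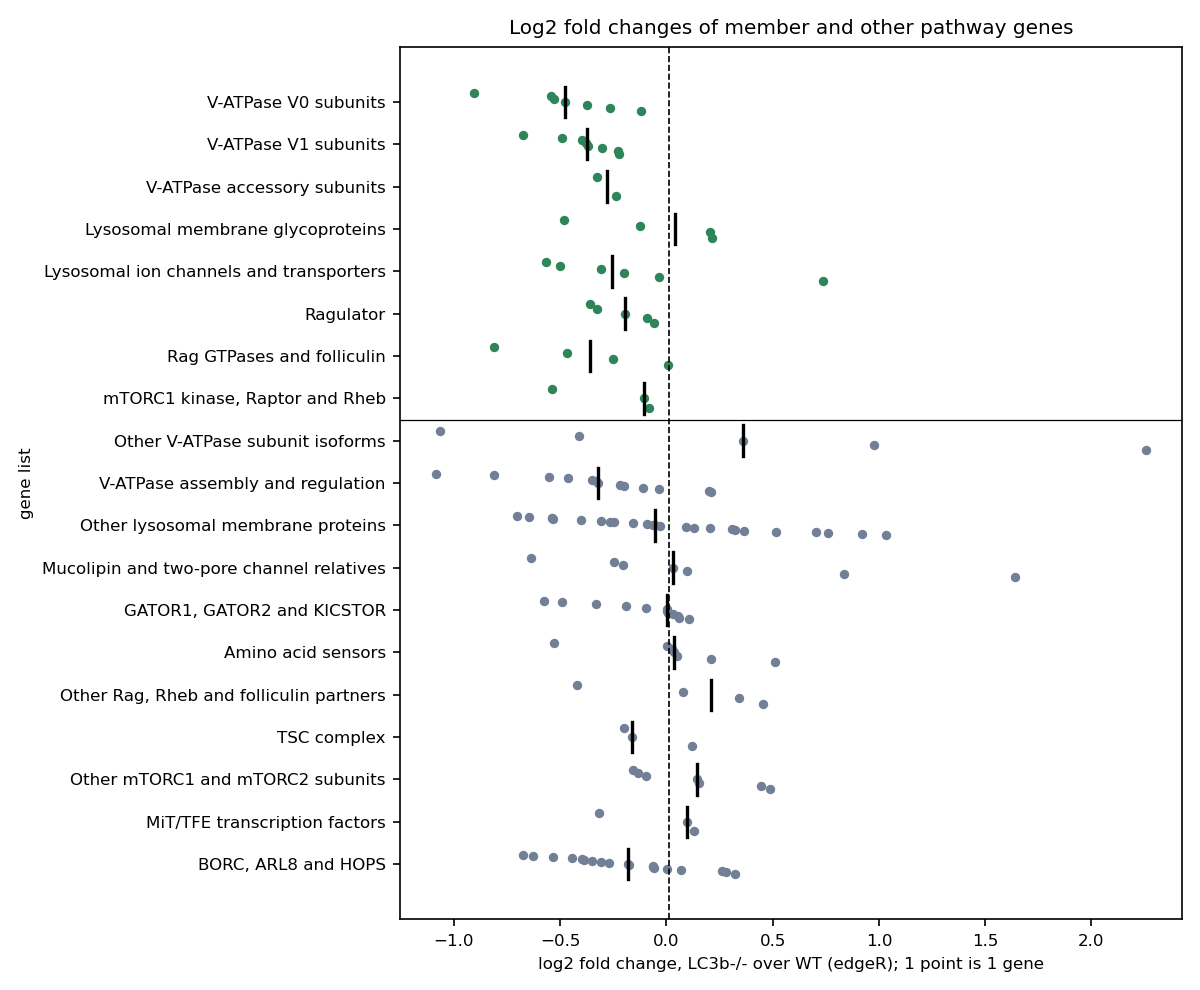
Each point is the log2 fold change of 1 gene, LC3b-/- over WT, by list; member lists are green, other pathway lists grey, the short bars are list medians and the dashed line the median of all genes tested (0.01). All V-ATPase, Ragulator, Rag and mTORC1 members lie to the left of that line, and each of the other lists has genes on both sides.

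Fold changes were also set beside the E-boxes described above, as a description without a test. Of the 10 members with the box 8 were lower, with a median log2 fold change of −0.30, and of the 29 without it 27 were lower, with a median of −0.32. Groups did not overlap for 1 of the 10 members with a box, Atp6v0b, and for 10 of the 29 without it. A box was searched only by exact letters near the start of the canonical transcript. Control of the members by MiT/TFE factors was not tested.

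Related genes were next compared within each library, since a ratio of 2 genes in 1 library does not depend on how libraries are scaled. Of 5 pairs, 3 differed between genotypes. The log2 ratio of Rragc to Rragd was −1.73, −1.78, −2.09 and −2.18 in WT and −0.95, −1.25 and −1.23 in LC3b-/-, a difference of 0.80. Per length of transcript, Rragd was at 42.5 ± 8.54 CPM per kb in WT and 24.3 ± 4.29 in LC3b-/- (SD), and Rragc at 21.1 ± 1.14 and 21.2 ± 2.87. Tpcn1 to Tpcn2 gave 3.66, 3.5, 3.88 and 4.12 in WT and 2.86, 2.74 and 3.41 in LC3b-/-, a difference of −0.78. Atp6v0a1 to Atp6v0a2 gave 1.89, 2.0, 2.04 and 2.03 in WT and 1.44, 1.81 and 1.66 in LC3b-/-, a difference of −0.35. In each of these 3 pairs all LC3b-/- libraries lay on one side of all WT libraries, and the exact two-sided permutation test gave p = 0.0286, the smallest that 35 ways of dividing the libraries allow, or 0.0476 after Benjamini-Hochberg adjustment over the 5 pairs. The pairs were chosen with fold changes of these data known, so these p-values are no independent evidence.

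The remaining pairs did not pass. Lamp1 to Lamp2 gave −0.05, −0.01, −0.41 and −0.57 in WT and 0.10, 0.13 and −0.0035 in LC3b-/- (difference 0.33, exact permutation p = 0.114, adjusted 0.143). These groups lie apart only by the small step between WT F2 and LC3b-/- M. Atp6v0e to Atp6v0e2 gave 0.20, −0.69, 0.15 and 0.35 in WT and 0.95, −0.004 and 0.69 in LC3b-/-, which overlap (difference 0.54, exact permutation p = 0.229, adjusted 0.229).

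**Figure D4:**
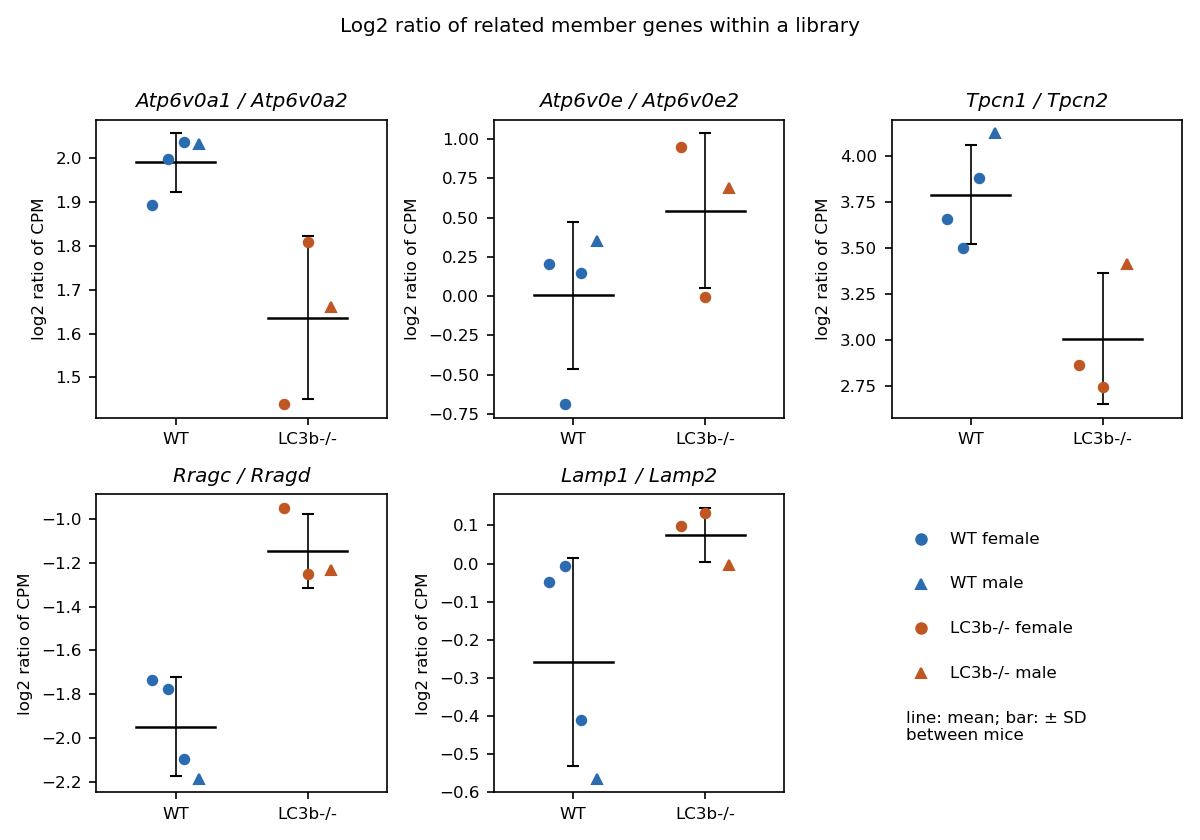
Points give, for each library (circles females, triangles males), the log2 ratio of the CPM of the first gene to that of the second, with the mean and SD of each genotype; the vertical axes do not start at 0. The Rragc to Rragd ratio lies higher and the Tpcn1 to Tpcn2 and Atp6v0a1 to Atp6v0a2 ratios lie lower in all LC3b-/- libraries than in all WT libraries.

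Markers of the RPE and of neighbouring tissues differed between the genotypes beside the members. The visual cycle and other RPE markers, 12 genes, were lower in LC3b-/- in 11 cases, 8 at an unadjusted p under 0.05, with a summed level of 31981 to 50235 CPM in WT and 14240 to 29850 CPM in LC3b-/-. Their median deviation from the WT mean was −0.25, −0.23, 0.13 and 0.36 log2 units in WT and −1.3, −0.99 and −0.31 in LC3b-/-, so that, as for the V-ATPase genes, WT F3 and M1 were the highest libraries and LC3b-/- F1 and F3 the lowest. Lrat, which esterifies retinol in the RPE, was at 2073, 1858, 3323 and 2365 CPM in WT and 432, 669 and 1305 CPM in LC3b-/-. Of the genes that define the cell type of the label, Rpe65 was at 2179, 2132, 2437 and 3968 CPM in WT and 878, 1340 and 2134 CPM in LC3b-/-, and Best1 lay at 1.71 CPM or less in every library.

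Ocular surface keratins and Muc4 were higher in LC3b-/- in 8 of 8 cases and lay above every WT library for 7 (all genes: 12%). Their summed level was 8.57 to 2394 CPM in WT and 3264 to 23155 CPM in LC3b-/-. LC3b-/- F1 held the most. Endothelial markers were higher in 8 of 8 cases, 5 without overlap (429 to 1333 CPM in WT, 1507 to 1818 CPM in LC3b-/-), and fibroblast and pericyte markers in 8 of 8, 1 without overlap (569 to 1678 and 1178 to 2252 CPM). Photoreceptor markers were lower in 10 of 10 cases, none at an unadjusted p under 0.05, and varied widely in both genotypes, with a summed level of 275 to 21235 CPM in WT and 97.2 to 7246 CPM in LC3b-/-. Inner retinal and Müller glial markers were lower in 5 of 10 cases, with a median log2 fold change of 0.26. Their summed level, 9226 to 12089 CPM in WT and 7744 to 8954 CPM in LC3b-/-, was mostly Apoe and Glul. These 2 genes had log2 fold changes of −0.43 and −0.03, so the lower sum is mainly that of Apoe. Melanocyte markers were lower in 4 of 5 cases (1388 to 2584 and 1185 to 1345 CPM, mostly Dct, which the RPE also expresses). Neutrophil markers were lower in 2 of 3 tested (3.22 to 9.48 and 4.05 to 10.6 CPM, with Mpo at 0 counts in every library) and erythrocyte markers in 1 of 5 (182 to 542 and 216 to 662 CPM). The part of these differences in the values of the members was not tested.

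**Figure D5:**
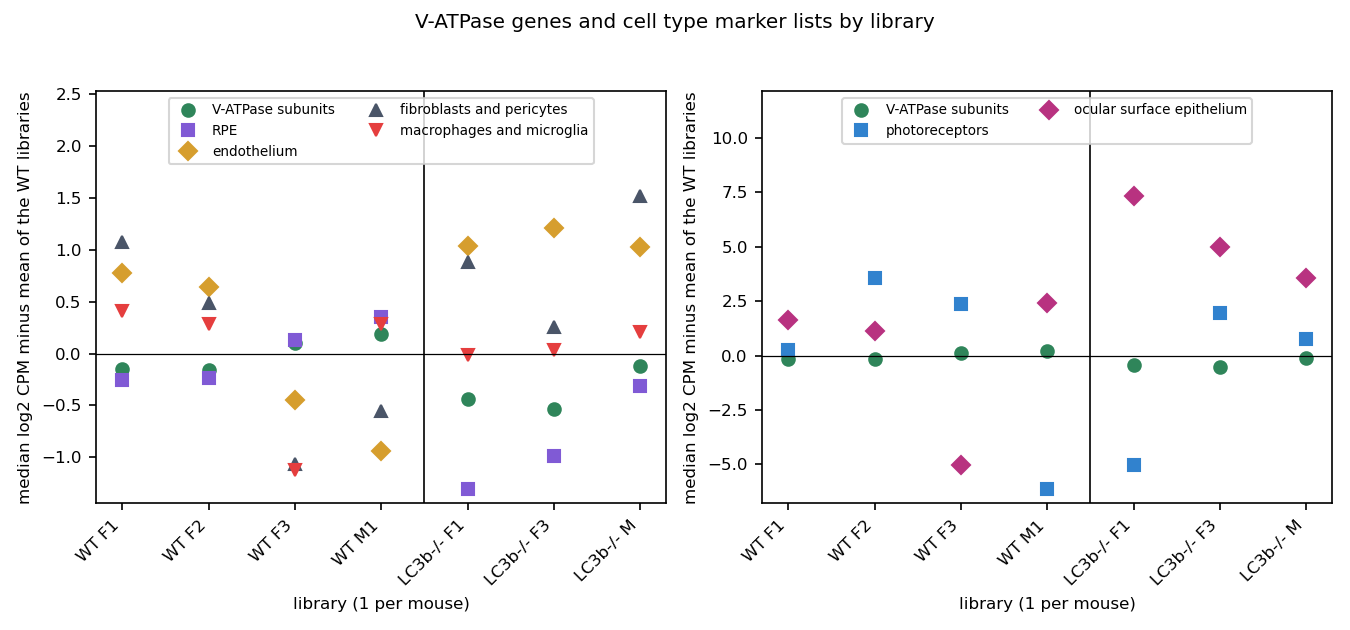
Points give, for each library, the median over a list of the log2 CPM minus the mean of the WT libraries; the panels differ in vertical scale. V-ATPase genes and RPE markers are lowest in LC3b-/- F1 and F3, endothelial markers lie higher in all LC3b-/- libraries, and ocular surface markers are highest in LC3b-/- F1.

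Leaving out 1 library at a time kept between 33 and 36 members lower in LC3b-/-, and between 8 and 21 at an unadjusted p under 0.05. The count was 8 without LC3b-/- F1, 9 without WT M1, 10 without WT F3 and 10 without LC3b-/- F3, against 15 with all libraries. It was 15 without WT F2, 16 without WT F1 and 21 without LC3b-/- M. The genotype difference was also compared between the sexes: 0 members had an interaction of genotype and sex at an unadjusted p under 0.05 (smallest adjusted p = 0.998, edgeR), in a fit with 1 male of each genotype that could show only large differences.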

How the data were processed

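Poly(A) RNA of mouse RPE was sequenced as stranded libraries with single reads of 100 bases. The authors estimated transcript abundance with salmon 1.9.0 (GENCODE vM26, GRCm39), summarised it per gene with tximeta 1.16.1, and deposited estimated counts per gene as whole numbers; how these were rounded, the trimming and the strand option are not given in the sources used here. All columns were used (0 left out). Libraries were grouped by genotype from their labels (4 WT, 3 LC3b-/-).

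Counts were tested with edgeR 4.0.16 in R 4.3.3 (filterByExpr, TMM factors, quasi-likelihood F-test, no covariate) over 16990 genes. Every adjusted p of a gene is edgeR's Benjamini-Hochberg value over all genes tested, unless another tool is named, and a gene was called at an adjusted p under 0.05 and at least 1.5-fold. The SE of a log2 fold change was derived from the fold change and its F statistic. Exact permutation tests used log2 CPM with a prior count of 2. DESeq2 1.42.0, limma 3.58.1 (voom), other scalings and filters, sex, females only, the mouse number and leaving out each library were the alternatives. On data simulated from the libraries of this comparison (16990 genes), 86 of 97 genes changed by 2 and 99 of 103 changed by 3 log2 units were called, with 9 false calls. The changed genes were drawn from the more abundant ones. The log2 fold changes of the members, −0.91 to 0.74, are smaller than any change simulated, so these shares do not say how many such changes would be called. Library totals of 24495952 to 35616134 limit only rare transcripts, and p-values measure the spread between mice.

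Coordinates and promoters are those of GRCm39 with GENCODE vM39, to which 51721 of 52740 identifiers matched (canonical transcript for length and start). Near-identical copies of members were looked for by BLAST 2.17.0, taking matches of 100 or more bases, 10% or more of the transcript and an identity of 95% or more. Copies with no more than a few counts in every library were left out. The member list, pathway lists, gene pairs and marker lists were chosen with earlier results of these data known. Values in every library are given for members that were called, did not overlap, were among the 12 of smallest p or had the highest or lowest level per length of their role; from each other list the 2 genes of smallest p are named. Protein sequences were not used here.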

Additional observations from a re-analysis of the deposited data

How the results depend on the processing

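Of 624 fold changes of members recomputed under the alternatives, 604 kept their direction and their side of the threshold, 8 passed it with DESeq2 at an adjusted p under 0.05, and 12, of Rragc, Tpcn1 and Lamtor2, changed sign. With DESeq2, 4 members were called in place of 0; the cause was not tested. The other alternatives, including the omission of the fold threshold, called 0 members, with 12 to 24 members at an unadjusted p under 0.05 where all libraries were kept: 12 with library size alone and 24 with sex as a covariate (15 as reported). Leaving out 1 library gave 8 to 21. Members lower in LC3b-/- numbered 33 to 36 throughout. Over all genes, the 40 calls (19 lower) became 1831 with DESeq2, 78 with no filter, 197 with sex, 96 with females only, 49 (18 lower) with library size alone, and 11 to 485 when 1 library was left out.

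The log2 fold change of Rragc, 0.01 as reported, was −0.017 with DESeq2, −0.013 with DESeq2's size factors, −0.0066 with no filter, −0.014 with sex as a covariate and −0.068 in females, and −0.096 to 0.081 when 1 library was left out; that of Tpcn1 was then −0.12 to 0.044 and that of Lamtor2 −0.24 to 0.0073. The differences of related-gene ratios were −0.35 (Atp6v0a1 to Atp6v0a2), −0.87 (Tpcn1 to Tpcn2) and 0.77 (Rragc to Rragd) in females, and −0.44 to −0.26, −0.99 to −0.65 and 0.70 to 0.87 when 1 library was left out. With so few libraries the permutation p cannot go below 0.0667 or 0.1, so these fits say nothing about the test.

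The number in the mouse name is not said to mark a shared litter or day, and only 2 numbers occur in both genotypes, too few to show a pairing from the data. The deviations of same-numbered libraries from their group means correlated at 0.146 (F1 with F1), 0.243 (F3 with F3) and 0.534 (WT M1 with LC3b-/- F1). With the number as a replicate block, which leaves out LC3b-/- M and gives WT F2 no partner, 0 members were called, 20 had an unadjusted p under 0.05, Rragc was at −0.12, and 169 genes were called in all. The remaining member results kept their direction under the block. In this fit WT F1 and WT M1, a female and a male, share a block with LC3b-/- F1, so it does not compare matched pairs. Library totals limit the precision of the members little: the lowest count was 163.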
